A study of Homo sapiens with 6 samples.

Results

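Cadherin and protocadherin genes were described in H3K27me3, H3K4me3 and input ChIP-seq of G401 cells, a malignant rhabdoid tumor line that lacks SMARCB1. Members were the rows of the count table named CDH, PCDH or PCDHB followed by a number and with input counts above 0. The rule gave 52 of 56638 genes, of which 23 were CDH genes, 11 were PCDH genes outside the clusters and 18 were PCDHB genes. All 52 matching names had input counts, and the lowest was PCDHB3 with 16 and 28. Cells were kept over 3 days in DMSO or in 3 µM MAK683, which binds the EED subunit of PRC2, the complex that trimethylates H3K27. For each treatment there was 1 library of H3K27me3, 1 of H3K4me3 and 1 of input, which is chromatin sequenced without an antibody. No value therefore had a replicate, and no test between the treatments was possible.

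Cadherins are calcium-dependent adhesion proteins that bind the same or a related cadherin on the neighboring cell. Classical cadherins of types I and II hold the actin cytoskeleton through catenins, and a switch from CDH1 (E-cadherin) to CDH2 (N-cadherin) is a known mark of epithelial cells turning mesenchymal. Most protocadherins lack the catenin-binding tail, act in neural wiring and sorting, and fall into genes that stand singly in the genome and genes packed in the alpha, beta and gamma clusters. Each PCDHB gene is a complete coding exon with its own promoter, and promoters of the clusters are known to share an element with a CGCT core that CTCF can bind. H3K27me3 is the repressive mark laid by PRC2, often at promoters rich in CpG, and H3K4me3 marks active or poised promoters.

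The promoters of 35 of the 52 members were matched by symbol in RefSeq (GRCh38.p14, 250 bases before to 50 after the gene start). They held a median of 9.5 CpG in 12 CDH genes, 11 in 9 PCDH genes and 7.5 in 14 PCDHB genes, against 14 in 27305 promoters of all genes. At least 20 CpG stood in 3 of the 12 CDH, 3 of the 9 PCDH and 0 of the 14 PCDHB promoters, and in 41.2% of all promoters. The promoters of PCDH8 and CDH18 are shown because these genes had the highest and the lowest H3K27me3 over input in DMSO among the CDH and PCDH genes. CpG is in capitals, 20 in PCDH8 and 5 in CDH18. This pair does not stand for all members. CDH10, with almost the same H3K27me3 over input as CDH18, held 12 CpG, and CDH23, also below input, held 43, the most of the matched members. Both promoters matched GRCh37 once on their chromosome, on the minus strand, PCDH8 at chr13:53422726-53423025 and CDH18 at chr5:20575773-20576072, and both cover the annotated 5′ end of the gene.
PCDH8: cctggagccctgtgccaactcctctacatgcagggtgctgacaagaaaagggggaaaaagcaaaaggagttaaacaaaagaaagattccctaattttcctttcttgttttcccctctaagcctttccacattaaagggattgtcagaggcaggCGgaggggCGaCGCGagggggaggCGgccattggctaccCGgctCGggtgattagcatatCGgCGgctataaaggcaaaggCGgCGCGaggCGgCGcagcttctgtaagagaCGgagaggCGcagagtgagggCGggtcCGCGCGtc
CDH18: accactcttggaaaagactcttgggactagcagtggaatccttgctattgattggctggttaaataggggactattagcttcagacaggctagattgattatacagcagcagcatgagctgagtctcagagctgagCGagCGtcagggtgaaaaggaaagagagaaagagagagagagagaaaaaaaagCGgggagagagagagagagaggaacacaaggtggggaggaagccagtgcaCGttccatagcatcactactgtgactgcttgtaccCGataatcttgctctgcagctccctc

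The beta cluster promoters shared a stretch that the other members lacked. GGTGGCGCT (searched on both strands, reverse complement AGCGCCACC) stood in 13 of 14 PCDHB promoters, in 0 of 12 CDH and 0 of 9 PCDH promoters, in 0 of 13 PCDHA and 0 of 20 PCDHG promoters, and in 0.524% of all promoters. PCDHB1 was the beta gene without it. The letters were chosen after looking at these promoters, they include the shorter CGCT, and CTCF was not measured in the libraries analysed here. The 13 windows are given with GGTGGCGCT in capitals because they show how alike the beta genes are at their starts. Their windows lie on the plus strand of chromosome 5 in GRCh37, from 140474128 in PCDHB2 to 140624916 in PCDHB15, with the stretch starting between positions -84 and -2 from the RefSeq gene start. Each window had 1 exact place on that chromosome, found through the whole promoter or, for PCDHB2 and PCDHB16, through the window itself.
PCDHB2: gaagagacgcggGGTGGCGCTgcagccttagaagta
PCDHB3: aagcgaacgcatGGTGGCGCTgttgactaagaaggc
PCDHB4: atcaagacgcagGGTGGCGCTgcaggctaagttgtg
PCDHB5: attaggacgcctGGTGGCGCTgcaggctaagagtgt
PCDHB7: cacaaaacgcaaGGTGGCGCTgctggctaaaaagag
PCDHB8: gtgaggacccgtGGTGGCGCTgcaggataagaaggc
PCDHB16: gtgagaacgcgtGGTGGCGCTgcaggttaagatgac
PCDHB9: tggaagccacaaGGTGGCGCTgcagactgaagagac
PCDHB10: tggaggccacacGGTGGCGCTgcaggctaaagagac
PCDHB12: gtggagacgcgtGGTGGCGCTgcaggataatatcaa
PCDHB13: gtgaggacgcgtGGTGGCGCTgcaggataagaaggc
PCDHB14: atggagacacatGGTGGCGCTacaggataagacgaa
PCDHB15: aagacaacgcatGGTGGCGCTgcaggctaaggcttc

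Library totals were between 13308099 and 21281877 counts. Whether exons or whole spans were counted is not given in the sources used here. The annotated spans had a median of 140 kb for CDH, 59.3 kb for PCDH and 3.82 kb for PCDHB genes, and the inputs of both treatments together held a median of 24.0, 22.2 and 25.6 counts per kb of span. These densities were close to each other, as they would be for counts over whole spans. A level is given below as log2 of CPM of a modification over CPM of its input, with 0.05 CPM added to both, so that the counted length cancels for an even signal. A level is a mean over the counted length. A signal confined to a promoter would weigh less in a long gene than in a short one, so levels of groups that differ in length are not levels of promoters. A change is log2((MAK683 + 1)/(DMSO + 1)) minus the median of all genes with at least 10 counts, which was -0.44 for H3K27me3 and -0.11 for H3K4me3. All 52 members passed this filter. The share of a gene's counts found in MAK683 has a 95% exact Clopper-Pearson interval for counting error only, taken from counts divided by 2 because both mates of a read pair may have been counted. For the median gene this share was 42.4% in H3K27me3 and 48.0% in H3K4me3, and the deposited counts carry no spike-in scaling, so none of these values gives the absolute amount of a modification. The paper, whose methods describe spike-in normalization, reports a massive loss of H3K27me3 across the genome after MAK683. A higher count, share or change of H3K27me3 below is therefore relative to the library and is no measured gain of the modification. SMARCB1 had 0 counts in both inputs.

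In DMSO, H3K27me3 was above input over 6 of 11 single protocadherins and below input over the beta cluster. The median level was 0.22 for PCDH, -0.40 for CDH and -1.03 for PCDHB genes, against -0.62 for all genes. The level was above input for 6 of 11 PCDH, 3 of 23 CDH and 0 of 18 PCDHB genes, against 32.8% of all genes tested. H3K27me3 was at least 2 times input in PCDH8, PCDH20 and CDH22, so in 3 of 52 members, against 13.5% of all genes, and in MAK683 in PCDH8 and PCDH20, against 9.93%. After MAK683, the medians were -0.0041 for PCDH, -0.25 for CDH and -0.23 for PCDHB genes, against -0.45 for all genes. The groups lay closer together than in DMSO, with 5 of 11 PCDH, 6 of 23 CDH and 5 of 18 PCDHB genes above input, against 34.3% of all genes.

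**Figure D1:**
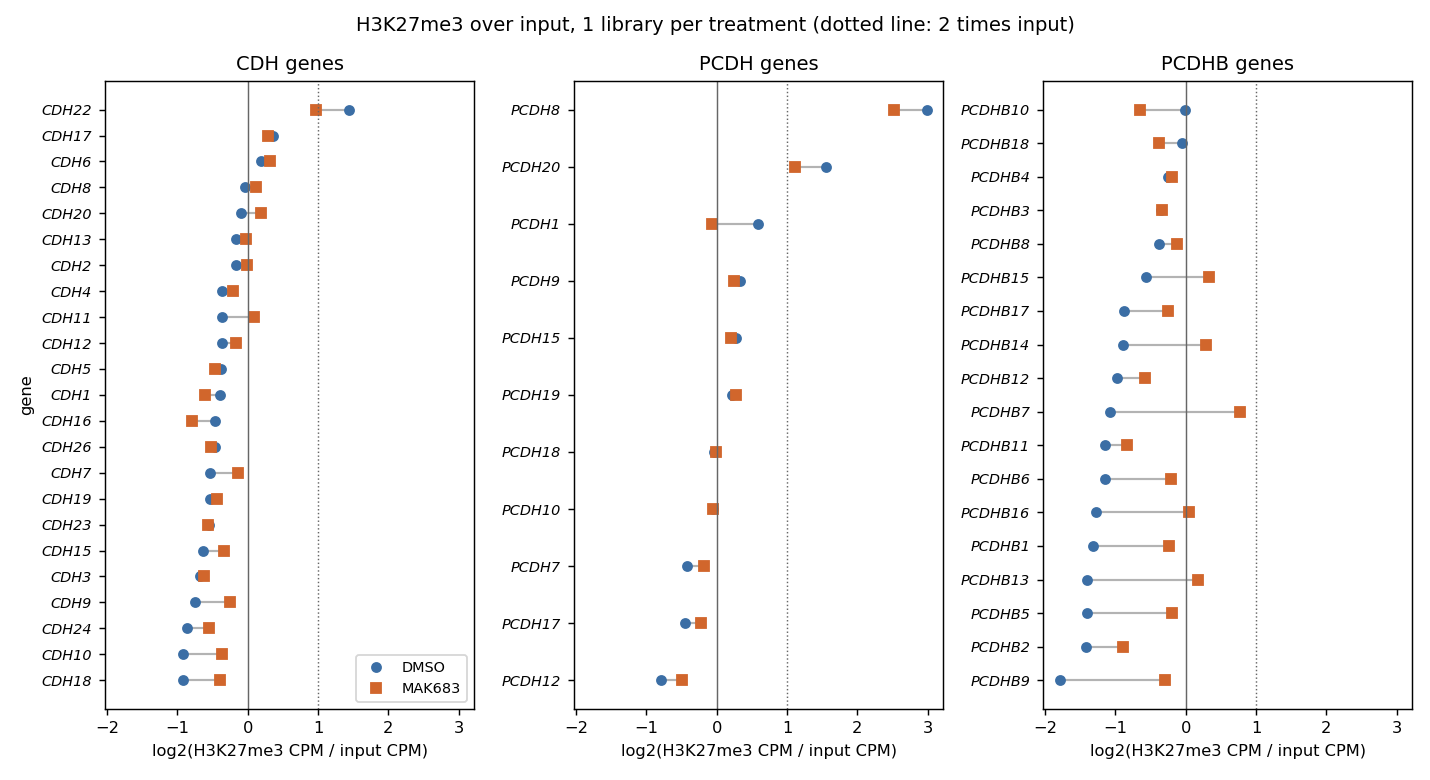
H3K27me3 over input for each gene as log2 of CPM over CPM, with DMSO as circles, MAK683 as squares, 1 library each, a solid line at input and a dotted line at 2 times input. All 18 PCDHB genes lie left of input in DMSO and 5 lie right of it in MAK683, and PCDH8 stands furthest right in both treatments.

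The beta cluster had the highest median change after MAK683. H3K27me3 was higher than in the median gene in 18 of 18 PCDHB, 16 of 23 CDH and 3 of 11 PCDH genes, against 49.9% of all genes by construction. The median change was 0.80 for PCDHB genes, with a 95% rank interval over genes of 0.16 to 1.16, 0.11 for CDH (-0.061 to 0.20) and -0.18 for PCDH genes (-0.36 to 0.21). The CDH and PCDH intervals held 0, and all 3 intervals overlapped. They describe the spread over genes, which are not replicates of the treatment, and do not test a difference between groups. The medians in deposited counts were 0.36, -0.33 and -0.62, so the sign of the CDH median depended on the scale. Relative to the median gene, H3K27me3 was at least 1.5-fold higher in 10 of 18 PCDHB genes and in 0 of 34 other members, against 9.03% of all genes. On the same scale it was at least 1.5-fold lower in 0 of 52 members, against 8.9% of all genes. Read by intervals, the share was above that of the median gene in 11 CDH, 2 PCDH and 6 PCDHB genes, against 8.34% of all genes, and below it in 2 CDH, 4 PCDH and 0 PCDHB genes, against 12.2%. Calls by fold and by interval both depend on depth. Counting error alone passes a fold more easily in genes of few counts, so the fold counts of the 3 groups are not of like depth. The median H3K27me3 count in DMSO was 1663 for CDH, 728 for PCDH and 21.5 for PCDHB genes, against 11 over all genes of the table. Smaller changes could thus be called by interval in CDH and PCDH genes than in most genes, and the shares of all genes are no like measure.

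**Figure D2:**
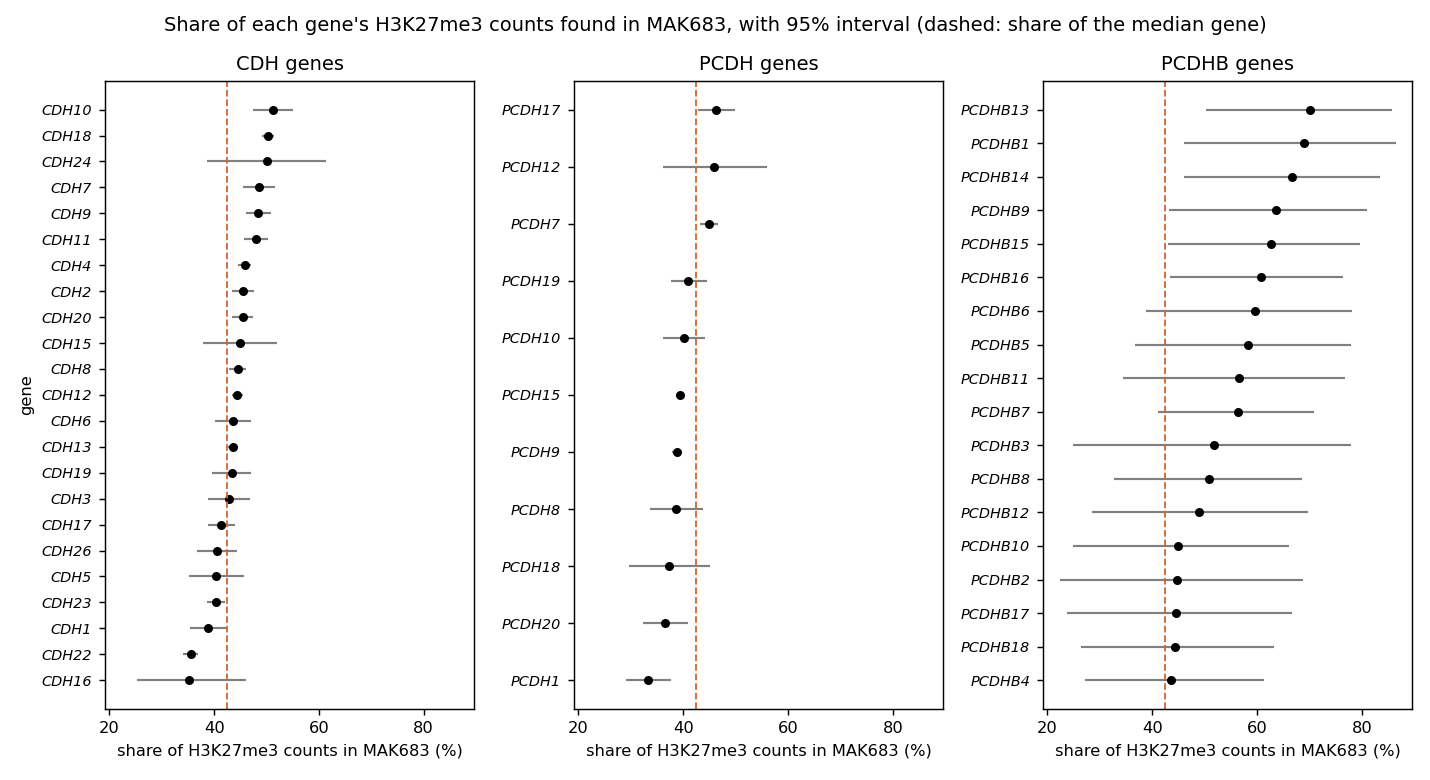
Share of each gene's H3K27me3 counts found in MAK683, in percent, with 95% exact intervals as lines and the 42.4% of the median gene as a dashed line, from 1 library per treatment. PCDH1 has the lowest share and PCDHB13 the highest, and all PCDHB points lie right of the dashed line with wide intervals.

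Type I cadherins include the epithelial and mesenchymal marker genes. In all 5 of them H3K27me3 was below input in DMSO, between -0.68 and -0.17. CDH1 (chr16:68771195-68869440 in GRCh37, plus strand, 98.2 kb) had 915 H3K27me3, 1559 H3K4me3 and 1062 input counts in DMSO and 582, 1385 and 1300 in MAK683. Its H3K4me3 level was 0.22 (0.055 to 0.38) in DMSO and 0.083 (-0.073 to 0.24) in MAK683, where the interval held input. The H3K27me3 level of CDH1 was -0.40 and -0.61. Its H3K27me3 change was -0.21 with a share of 38.9% (35.4 to 42.5), which reached the value of the median gene. Levels of the 2 modifications come from different antibodies, each relative to its own library, so they do not show which modification CDH1 carried more of.
CDH3 (P-cadherin, chr16:68670092-68761371), its neighbor on the same strand, had 703 H3K27me3, 667 H3K4me3 and 992 input counts in DMSO and 525, 688 and 1183 in MAK683. Both of its modifications were below input in both treatments, and its H3K27me3 change of 0.020 was close to that of all genes. CDH2, on chromosome 18, had 2397 H3K27me3, 1974 H3K4me3 and 2377 input counts in DMSO and 2004, 2134 and 2951 in MAK683. Its H3K27me3 level lay near input at -0.17 and -0.0061, the highest of the type I genes, and its change was 0.18 with a share of 45.5% (43.4 to 47.6), but -0.26 in deposited counts.
CDH4 (R-cadherin) had the largest H3K4me3 change of the CDH genes, 0.40, with 9235 counts in DMSO and 11247 in MAK683 and a share of 54.9% (53.9 to 55.9). Its input was also relatively higher in MAK683, with 8014 and 10206 counts and a change of 0.13. CDH15 (M-cadherin of muscle) had an H3K4me3 level of 0.65 in DMSO and 0.72 in MAK683, with 599 and 556 counts.

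Type II cadherins are mostly neural and mesenchymal adhesion proteins, and they held the ends of the range of H3K27me3 levels among CDH genes in DMSO. CDH22 (chr20:44802378-44937137, minus strand, 135 kb), a cadherin of the brain, had 5242 H3K27me3, 1819 H3K4me3 and 1693 input counts in DMSO and 2883, 1855 and 2161 in MAK683. Its H3K27me3 level was 1.44 in DMSO, with an interval of 1.33 to 1.56, and 0.97 in MAK683, at 0.85 to 1.08. Its change was -0.42 with a share of 35.5% (34.0 to 37.0), so CDH22 was the most marked type II gene and the only one whose interval lay below the median gene. Its H3K4me3 share was 50.5% (48.2 to 52.8), just above the median gene, and its H3K4me3 change of 0.14 was 0.0076 with the input change subtracted.
CDH6 (K-cadherin of the kidney) was the other type II gene above input in DMSO, at 0.19, with 935 H3K27me3, 461 H3K4me3 and 721 input counts in DMSO and 723, 498 and 853 in MAK683. Of its span, 45.4% is free of other annotated genes. CDH18 (chr5:19471405-20575982, minus strand) had the lowest level, -0.92, with 7099 H3K27me3, 9181 H3K4me3 and 11772 input counts in DMSO and 7156, 9922 and 13779 in MAK683. Its H3K27me3 counts were thus almost equal in libraries that differed in total, which gave a change of 0.45 and a share of 50.2% (49.0 to 51.4).
CDH10, another neural type II gene, had 649 H3K27me3, 763 H3K4me3 and 1076 input counts in DMSO and 681, 763 and 1289 in MAK683. Its level was also -0.92 in DMSO and -0.37 in MAK683, and its change of 0.51 was the largest among CDH and PCDH genes, with a share of 51.2% (47.3 to 55.1). CDH24 had 80 H3K27me3 counts in both treatments, 713 and 578 H3K4me3 and 129 and 172 input counts, and its change of 0.44 had a share of 50.0% with an interval of 38.6 to 61.4 that held the value of the median gene. It was the CDH gene with the highest H3K4me3, at 2.12 in DMSO and 1.73 in MAK683.
CDH11 (OB-cadherin, chr16:64977656-65160015, minus strand), a marker of mesenchymal cells, had 1951 H3K27me3, 1915 H3K4me3 and 2205 input counts in DMSO and 1794, 2225 and 2479 in MAK683. Its H3K27me3 level was -0.36 in DMSO and 0.086 in MAK683, with a change of 0.32 and a share of 47.9% (45.6 to 50.2), and its H3K4me3 change was 0.33 with a share of 53.7% (51.6 to 55.9). In deposited counts the H3K27me3 change of CDH11 was -0.12. CDH5 (VE-cadherin), the cadherin of endothelial cells, had 426 and 288 H3K27me3 counts and levels of -0.38 and -0.47, and both of its modifications were below input in both treatments.

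Type II genes lie in chromosomal groups, and the values varied within each group. On the short arm of chromosome 5, CDH18, CDH10 and CDH9 had H3K27me3 levels between -0.92 and -0.75 in DMSO and changes between 0.35 and 0.51. CDH12, between CDH18 and CDH10, had a level of -0.36 and a change of 0.11, and CDH6 at the other end had 0.19 and 0.070. On chromosome 18, CDH20, CDH7 and CDH19 had levels of -0.090, -0.53 and -0.54 and changes of 0.18, 0.36 and 0.053. Over all 13 type II genes the median change was 0.18, 11 were above the median gene, and 8 had a share above it by interval, against 8.34% of all genes. Their median H3K27me3 count in DMSO was 1836, against 11 over all genes of the table, so small changes were called here and these 2 shares are not of like depth.

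The 5 CDH genes outside types I and II differ widely in structure and site of action. CDH17 (LI-cadherin of liver and intestine) had an H3K27me3 level of 0.35 in DMSO, second among the CDH genes, and of 0.29 in MAK683, below CDH22 and CDH6, with 1663 H3K27me3, 743 H3K4me3 and 1143 input counts in DMSO and 1174, 688 and 1408 in MAK683. CDH16 (KSP-cadherin of kidney tubules) had 114 H3K27me3, 133 H3K4me3 and 138 input counts in DMSO and 62, 116 and 158 in MAK683. Its change of -0.43 was the lowest of the CDH genes, but at this depth the share of 35.2% had an interval of 25.3 to 46.1 that held the value of the median gene. CDH13 (T-cadherin, anchored by lipid) and CDH26 had levels of -0.17 and -0.47 in DMSO and changes of 0.064 and -0.12. CDH23, which joins PCDH15 in the tip link of hair cells, had a level of -0.56 and a change of -0.13 with a share of 40.3% (38.6 to 42.0), and PCDH15 had a level of 0.28 and a change of -0.18 with a share of 39.4% (38.7 to 40.2). Both tip link genes lay below the median gene.

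Among protocadherins outside the clusters, PCDH8 and PCDH20 stood apart. PCDH8 (chr13:53417024-53422776, minus strand, 5.75 kb, 3 exons), which acts at synapses, had 457 H3K27me3, 113 H3K4me3 and 50 input counts in DMSO and 288, 166 and 73 in MAK683. Its H3K27me3 level was 2.98 (2.41 to 3.66) in DMSO and 2.52 (2.00 to 3.10) in MAK683, at the percentiles 99.6 and 99.5 of all genes, so it stayed near the top of the table. Its H3K4me3 level was 0.83 and 1.17, and the H3K4me3 share of 59.5% (50.9 to 67.7) lay above the median gene, while the H3K27me3 share of 38.7% (33.7 to 43.8) did not lie below it by interval. With the input change subtracted, the H3K27me3 change of PCDH8 was -0.54 in place of -0.22.
PCDH20 (chr13:61983818-61989982, minus strand, 6.17 kb) had 648 H3K27me3, 114 H3K4me3 and 193 input counts in DMSO and 372, 168 and 251 in MAK683. Its H3K27me3 level was 1.56 and 1.12, its H3K27me3 share of 36.5% (32.3 to 40.8) lay below the median gene and its H3K4me3 share of 59.6% (51.0 to 67.7) above it. Only 2.81% of its span is free of another gene in the newer annotation, and its input of 72.0 counts per kb over both treatments was the highest of the PCDH genes.
PCDH1 (chr5:141232655-141258811, minus strand, 26.2 kb), a delta-1 protocadherin of epithelia, had 635 H3K27me3, 1758 H3K4me3 and 371 input counts in DMSO and 316, 1578 and 487 in MAK683. Its H3K27me3 level was 0.59 in DMSO and -0.072 in MAK683, and its change of -0.56 was the lowest of all members, with a share of 33.2% (29.0 to 37.7). PCDH1 carried both modifications above input in DMSO, and its H3K4me3 level of 1.90 and 1.69 was the highest of the PCDH genes, with an H3K4me3 share of 47.3% (44.9 to 49.7).
The delta-1 genes PCDH9 and PCDH7 differed from each other. PCDH9 had a level of 0.34 in DMSO and a change of -0.21 with a share of 38.9% (37.9 to 39.8), and PCDH7 had a level of -0.42 and a change of 0.15 with a share of 45.0% (43.3 to 46.7). Of the delta-2 genes beside PCDH8, PCDH19 was at 0.22, PCDH18 at -0.043, PCDH10 at -0.060 and PCDH17 at -0.45 in DMSO. PCDH17 had 827 H3K27me3, 689 H3K4me3 and 994 input counts in DMSO and 713, 750 and 1224 in MAK683, with a change of 0.23 that was -0.21 in deposited counts.
PCDH12, the protocadherin of endothelial cells, had the lowest level of the PCDH genes, -0.80 in DMSO and -0.49 in MAK683, with 112 H3K27me3, 125 H3K4me3 and 172 input counts in DMSO and 95, 160 and 196 in MAK683. The order of PCDH genes by H3K27me3 was therefore led by PCDH8 and PCDH20, and their intervals did not overlap with each other or with PCDH1 in DMSO. Both have short annotated spans, but with its high input per kb the span counted for PCDH20 may have been longer.

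The beta cluster was described as a whole because each gene had few counts. Over the 18 genes there were 440 H3K27me3, 1160 H3K4me3 and 751 input counts in DMSO and 551, 1241 and 904 in MAK683. The H3K27me3 counts of the cluster were thus higher in MAK683 although the library total was lower, and their pooled share was 55.6% (51.1 to 60.03). Without spike-in scaling this is a larger part of the library and not a measured gain of H3K27me3. The pooled shares were 44.5% (44.1 to 44.9) for CDH and 39.9% (39.4 to 40.4) for PCDH genes, against 41.0% for all genes. These intervals hold counting error of the sums only, and PCDH15 and PCDH9 gave 19914 and 12644 of the 40861 PCDH counts in DMSO, while single PCDH shares ran from 33.2% to 46.3%. Pooled H3K27me3 over input in the cluster was -0.96 (-1.20 to -0.71) in DMSO and -0.16 (-0.38 to 0.057) in MAK683, which is close to input, and the input share of 54.6% (51.2 to 58.1) held the 53.8% of the median gene. In deposited counts H3K27me3 was higher in MAK683 for 12 of the 18 genes, against 13.3% of all genes.

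**Figure D3:**
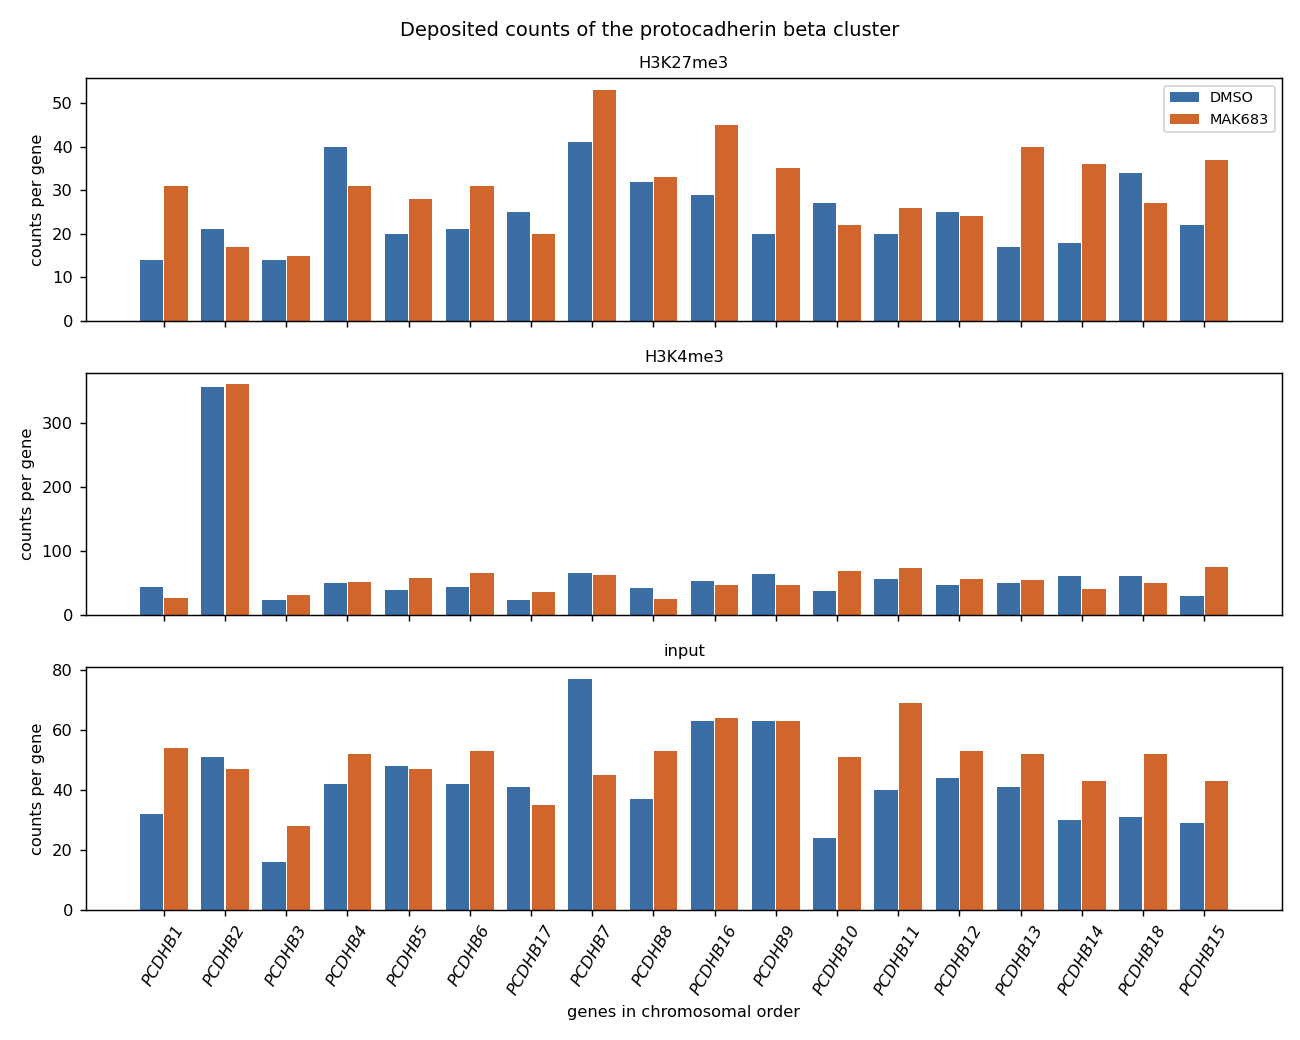
Deposited counts of the 18 PCDHB genes in chromosomal order for H3K27me3, H3K4me3 and input, with DMSO and MAK683 bars side by side from 1 library each. H3K27me3 bars are higher in MAK683 for 12 genes, and PCDHB2 stands out in H3K4me3 with 357 and 361 counts.

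No PCDHB gene reached a mean of 50 H3K27me3 counts, so single genes were imprecise, and with a minimum of 50 counts in 1 of the 2 libraries PCDHB7 was the only gene left to compare. PCDHB13 had the largest change, 1.63, with 17 and 40 H3K27me3 counts, 50 and 55 H3K4me3 counts and 41 and 52 input counts in DMSO and MAK683. Its share was 70.2% with an interval of 50.2 to 85.7. PCDHB1, at the start of the cluster and without the shared stretch in its promoter, had 14 and 31 H3K27me3, 45 and 28 H3K4me3 and 32 and 54 input counts, with a change of 1.53 and a share of 68.9% (46.1 to 86.5).
PCDHB14 had 18 and 36 H3K27me3, 61 and 42 H3K4me3 and 30 and 43 input counts, and PCDHB9 had 20 and 35, 64 and 48 and 63 and 63. Their H3K27me3 changes were 1.40 and 1.22, and PCDHB9 had the lowest level of all members in DMSO, -1.79. PCDHB15 had 22 and 37 H3K27me3, 31 and 75 H3K4me3 and 29 and 43 input counts, and PCDHB10 had 27 and 22, 38 and 69 and 24 and 51. PCDHB7 had the highest H3K27me3 level of the cluster in MAK683, 0.78, with 41 and 53 H3K27me3 counts, while its input went from 77 to 45, the lowest input change of the members at -0.98.
The other PCDHB genes had between 14 and 40 H3K27me3 counts in DMSO and between 15 and 45 in MAK683. Reads from paralogs of near-identical sequence may be shared among these genes, and PCDHB17 and PCDHB18 are annotated as pseudogenes. In the newer annotation only PCDHB2 and PCDHB15 had at least 50% of their span free of other genes, and the annotation used for counting is not given in the sources used here. The part of shared reads in the values of the cluster was not tested.

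H3K4me3, as a mean over the counted length, stood above input in few members. Spearman's rho between its level in DMSO and gene length was -0.48 over 52 members and -0.25 over the 34 CDH and PCDH genes. Within groups it was -0.026 over CDH, -0.59 over the 11 PCDH and 0.19 over PCDHB genes. As a group the PCDHB genes were shorter and had the highest median. The median level in DMSO was -0.76 for CDH, -0.84 for PCDH and -0.088 for PCDHB genes, against -0.32 for all genes, and it was above input in 13 of 52 members, against 39.8% of all genes. H3K4me3 was at least 2 times input in CDH24, PCDH1 and PCDHB2, against 21.1% of all genes. In MAK683 the same genes passed, joined by PCDH8 at 1.17 and PCDH18 at 1.14, against 20.1% of all genes, and 18 of 52 members were above input, against 41.7%. PCDH18 had 393 and 390 H3K4me3 counts, and its share of 49.8% (44.7 to 54.9) held the value of the median gene. Its input was relatively lower in MAK683, with 182 and 175 counts and a change of -0.28. PCDHB2 (chr5:140474191-140478287, plus strand, 4.10 kb, 1 exon) had the highest H3K4me3 level of the members, 2.45 in DMSO and 2.91 in MAK683, with 51 and 47 input and 21 and 17 H3K27me3 counts. It held 357 of the 1160 H3K4me3 counts of the cluster in DMSO, and without it the pooled level of the cluster was -0.14 in place of 0.29.

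**Figure D4:**
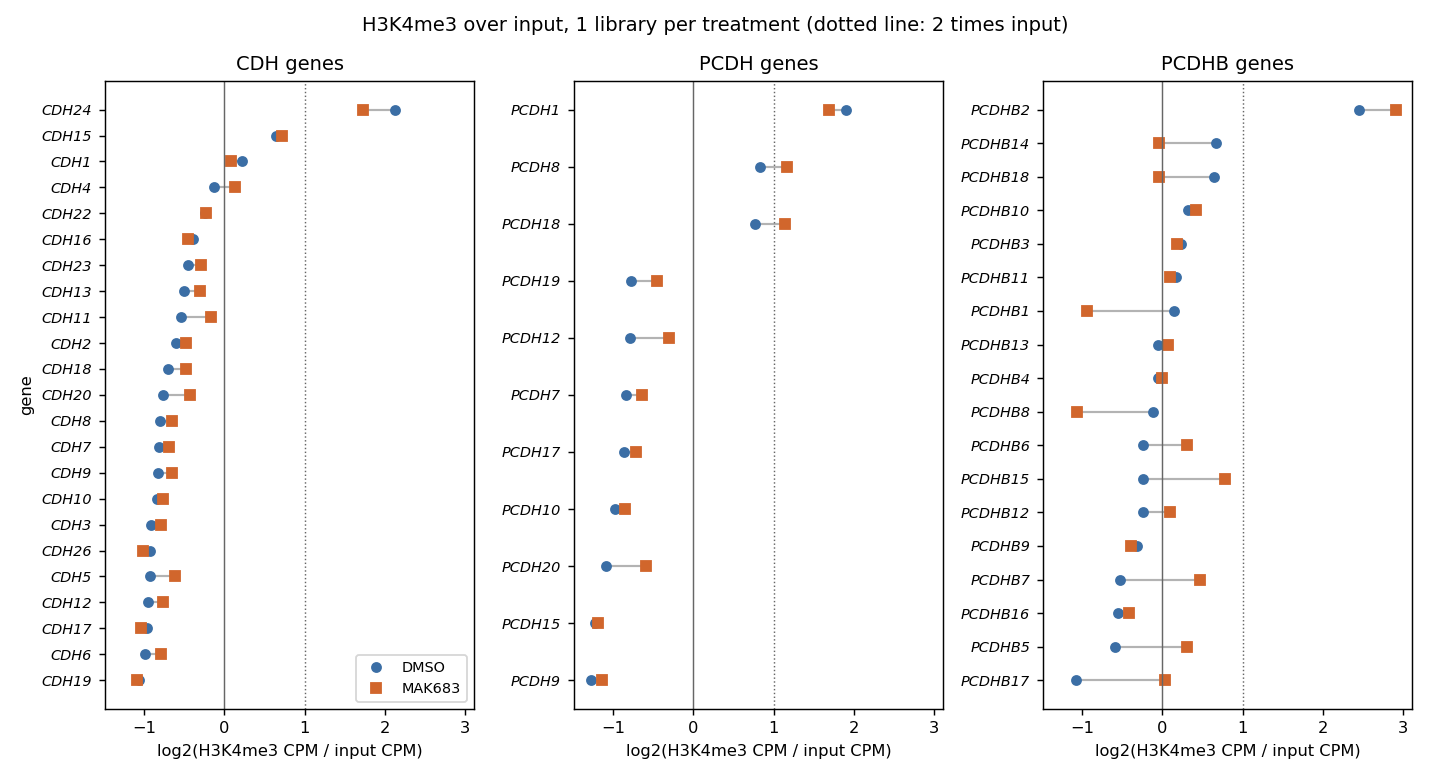
H3K4me3 over input for each gene as log2 of CPM over CPM, with DMSO as circles, MAK683 as squares, 1 library each, a solid line at input and a dotted line at 2 times input. CDH24, PCDH1 and PCDHB2 lie right of the dotted line in both treatments, and most CDH and PCDH genes lie left of input.

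The H3K4me3 change was above that of the median gene in 19 of 23 CDH, 10 of 11 PCDH and 12 of 18 PCDHB genes, against 50% of all genes by construction, with medians of 0.16, 0.19 and 0.19, and in deposited counts the medians were 0.045, 0.072 and 0.081. At least 1.5-fold higher H3K4me3 was found in 7 of 52 members, PCDH8, PCDH20, PCDHB5, PCDHB6, PCDHB10, PCDHB15 and PCDHB17, against 9.94% of all genes. At least 1.5-fold lower H3K4me3 was found in PCDHB8, with 43 and 25 counts, against 5% of all genes. By interval the share lay above the median gene in 11 CDH, 6 PCDH and 2 PCDHB genes, against 11.7% of all genes, and below it in 0 members, against 14.3%. These calls too depend on depth, with a median H3K4me3 count in DMSO of 1559 for CDH and 535 for PCDH genes, against 10 over all genes of the table. Of the 6 members whose H3K27me3 share lay below the median gene, 4 had an H3K4me3 share above it, CDH22, CDH23, PCDH9 and PCDH20, and of the 19 members with an H3K27me3 share above it this held for 11. Joint calls were not counted over all genes, so these counts have no background and show no link between the modifications.
PCDHB15 had the largest H3K4me3 change, 1.36, with a share of 70.8% (56.7 to 82.4), followed by PCDHB10 with 0.96 and 64.5% (50.2 to 77.1). Both intervals left the 48.0% of the median gene, but the PCDHB10 input also went from 24 to 51 counts, and with the input change subtracted its H3K4me3 change was 0.12. Among members with a mean of at least 50 counts, the lowest changes were those of PCDHB14 at -0.42, PCDHB9 at -0.30 and CDH24 at -0.19, and their intervals held the value of the median gene.

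Across members, genes with less H3K27me3 in DMSO had a higher change. Spearman's rho between the DMSO level and the change was -0.74 over 52 members and -0.65 over the 34 CDH and PCDH genes, against -0.59 over all genes. The DMSO count enters both measures with opposite sign, and with the MAK683 level in place of the DMSO level rho was -0.084 and -0.25. That level shares the MAK683 count with the change, with the same sign, so these values are biased too. By group they were 0.21 for CDH, -0.56 for PCDH and 0.49 for PCDHB genes. DMSO and MAK683 levels of H3K27me3 ranked the 34 CDH and PCDH genes alike, with rho of 0.85, but not the 18 PCDHB genes, with rho of -0.020. For H3K4me3 these values were 0.93 and 0.049. H3K27me3 and H3K4me3 changes had a rho of 0.25 over the 34 genes, so a lower H3K27me3 change did not go with a higher H3K4me3 change. The number of promoter CpG had a rho of 0.43 with the H3K27me3 level in DMSO over the 35 matched members and 0.40 over the 21 CDH and PCDH genes among them. Within groups it was 0.42 over 12 CDH, 0.32 over 9 PCDH and 0.19 over 14 PCDHB genes. PCDH20 and CDH22, both at least 2 times input in DMSO, had no matched promoter and are left out of these values. All points share the same libraries, and these correlations are descriptions.

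Genes that work with the members or flank them were given as lists. The catenins, which link classical cadherins to actin, had a median H3K27me3 level of -0.85 in DMSO, and 0 of 7 passed a 1.5-fold change in either modification, which says little at the shares of 5% to 9.94% of all genes given above. The desmosomal cadherins had a median of 0.71, all 5 with input counts were above input, against 32.8% of all genes, with DSG2 highest at 1.10 and DSC2 lowest at 0.50, and their median change was -0.30. The more distant FAT, DCHS, CELSR, CLSTN and CDHR cadherins had a median of -0.43 over 17 genes, from -1.07 in CLSTN1 to 1.40 in CDHR1, and 5 nectins had a median of -0.61. Of factors that repress CDH1, SNAI2 was highest at 2.02 in DMSO and 1.27 in MAK683, with 262 and 116 H3K27me3 and 74 and 293 H3K4me3 counts, and ZEB1 was lowest at -1.23. The clusters next to the beta genes could not be described, because 14 of 15 PCDHA and 20 of 21 PCDHG genes were at 0 counts in all 6 libraries, with PCDHA1 and PCDHGA1 as the counted ones. Their H3K27me3 changes were 0.23 and 0.21, with shares of 46.3% (34.7 to 58.2) and 45.9% (33.7 to 58.5) that held the value of the median gene.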

How the data were processed

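H3K27me3, H3K4me3 and input ChIP-seq of G401 cells with DMSO or MAK683 was analysed, 1 library each. The authors trimmed reads with Trim Galore 0.4.4 and aligned them to hg19 with Bowtie2. Picard 2.23.6 took out what the paper calls repeat sequences, and its spike-in section speaks of the removal of duplicates. Reads per gene were counted with featureCounts, and whole-number counts were deposited. The annotation, the gene part counted and the counting of pairs are not given in the sources used here, and the spike-in scaling was not repeated. Coordinates are from GENCODE release 44 on GRCh37, in which 50 members matched by symbol and 2 by an older one.

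Levels, changes and intervals were computed with Python 3.11.15, pandas 2.3.3 and scipy 1.17.1, and tested on simulated data. Each simulated fragment gave 2 counts, so the simulation could not show whether halving suits the real counts. In each library more genes had 2 counts than 1, and among genes with 1 to 20 counts between 50.6% and 54.1% were even. These values do not settle whether both mates were counted. Counts were divided by 2 for intervals because this gives the wider interval, a choice made after seeing the data. Medians have rank intervals over genes, which are not replicates, so these intervals describe and do not test.

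Values in every library were given for the 3 highest and 2 lowest H3K27me3 levels per group, the 3 largest changes in each direction of either modification, all with a mean of at least 50 counts, and CDH1, CDH2, CDH3 and CDH11. PCDHB1, PCDHB2, PCDHB7 and PCDHB13 were added after their values were seen. Members and lists were chosen with earlier results of these data known. Alternatives were other scales, pseudocounts, filters, folds and member sets.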

Additional observations from a re-analysis of the deposited data

How the results depend on the processing

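No paired analysis was possible because each treatment and antibody had 1 library, and for the same reason no library could be left out. Of 234 alternative values of the group medians and counts, 34 moved. In deposited counts the median H3K27me3 change was -0.33 for CDH and -0.62 for PCDH genes, with no filter on counts -0.24 and -0.53, and in CPM with a pseudocount of 1 CPM it was 0.20 for CDH genes. The H3K27me3 changes of CDH11, CDH2 and PCDH17 turned negative in deposited counts (-0.12, -0.26 and -0.21) and with no filter (-0.037, -0.17 and -0.13), where the median over all genes includes genes of few or 0 counts. In deposited counts H3K27me3 was at least 1.5-fold lower in 3 CDH and 6 PCDH genes (36.4% of all genes) and higher in 6 PCDHB genes (3.28%), and H3K4me3 was higher in 0 PCDH and 2 PCDHB genes (8.03%) and lower in 2 PCDHB genes (7.28%). Relative to library totals, H3K27me3 was 1.5-fold higher in 1 CDH gene. At a difference of 25%, H3K27me3 was lower in 2 CDH and 2 PCDH genes and higher in 5 CDH genes, and H3K4me3 was higher in 3 CDH and 8 PCDHB genes and lower in 3 PCDHB genes. With a fold of 2, H3K27me3 was higher in 6 PCDHB genes, and H3K4me3 was higher in 0 PCDH and 1 PCDHB genes and lower in 0 PCDHB genes. With at least 50 counts, H3K27me3 was higher in 1 PCDHB gene and H3K4me3 lower in 0. At 1.5 times input in DMSO, H3K4me3 was found in 2 CDH, 3 PCDH and 3 PCDHB genes. The median H3K4me3 level of PCDHB genes was -0.42 in DMSO and -0.15 in MAK683 with at least 100 input counts, and 1.11 and 1.84, with a change of 0.74, over the 2 genes with at least 50% of their span unshared. With the input change subtracted, the H3K27me3 change of CDH22 was -0.56 and the H3K4me3 change of PCDH1 was -0.22, and PCDH8, PCDHB10 and the H3K4me3 change of CDH22 also moved. With intervals from all counts, chosen after seeing the data, the H3K4me3 share was below the median gene in 1 CDH gene and above it in 4 PCDHB genes. Depth limited the PCDHB genes, with 14 to 53 H3K27me3 counts each. Leaving out the pseudogenes or PCDHB2, also chosen later, moved no PCDHB median beyond its rank interval. The cause of these differences was not tested.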
